A study of Mus musculus with 6 samples.

Results

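Chemokines that guide lymphocytes and dendritic cells were examined in ischemic and healthy mouse lung. The group is 10 genes of 23194 in the deposited table, taken by symbol: the ligands Cxcl9, Cxcl10, Cxcl12, Cxcl13, Ccl5, Ccl17, Ccl19, Ccl21a and Ccl22, and the receptor Ccr7. All 10 were found, and all 10 were among the 15486 genes that passed the filter on low counts. Each library was made from the RNA of a whole left lung of an adult C57BL/6 mouse, wild type in genotype. In 3 injured lungs the left pulmonary artery had been tied for 4 h and blood flow then returned for 24 h, a warm ischemia-reperfusion injury, and 3 naive lungs served as the comparison. Genotype and strain were the same in both groups. No sham operation is described for naive mice, and anesthesia, intubation and opening of the chest therefore cannot be told apart from ischemia and reperfusion. The general protocol text allows ligation for 4 h or 5 h, while the sample titles and the design give 4 h.

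Chemokines are small secreted proteins that bind receptors on leukocytes and direct where those cells move. Ccl19 and Ccl21 bind Ccr7 and draw mature dendritic cells and recirculating T cells into lymphatic vessels and lymph nodes, while Cxcl13 binds Cxcr5 and gathers B cells in follicles. Cxcl9 and Cxcl10 bind Cxcr3 on activated T cells and NK cells and are induced by interferons, Ccl17 and Ccl22 bind Ccr4, Ccl5 binds Ccr1 and Ccr3 among others, and Cxcl12 binds Cxcr4.

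Total counts per library lay between 18913487 and 34986276. Transcripts that define lung were abundant in every library, with the surfactant protein gene Sftpc at 13755 to 16904 CPM, the count scaled to the TMM-adjusted library size. Markers of thymus and lymph node, which could lie beside the lung, were mixed. Rag1 had 6 counts over the injured and 12 over the naive lungs, Glycam1 of lymph node high endothelium had 0 counts over the injured and 1 over the naive lungs, and Rag2 and Ptcra were not analysed here. The lymph node markers, tested or not, summed to 13.6 to 28.2 CPM in injured and 20.4 to 35.4 CPM in naive lungs. The most abundant were the B cell gene Fcer2a (log2 fold change -0.83 ± 0.29, adjusted p = 0.204) and Chst4 of high endothelium (9.10 CPM in injured and 11.3 CPM in naive lungs on average, -0.30 ± 0.70, adjusted p = 0.887, against 0.17 without injured replicate 3). The thymocyte markers, tested or not, summed to 139 to 180 CPM in injured and 168 to 178 CPM in naive lungs, most of it from Rmnd5a, which is not restricted to thymocytes. Among the 3 tested thymocyte markers Themis, which mature T cells also express, was called lower (log2 fold change -1.65 ± 0.32, adjusted p = 0.0239). That call was lost without injured replicate 1 or 3 or naive replicate 1 or 2 (adjusted p up to 0.113). Of the 4 tested lymph node markers, 0 were called by edgeR and 3 had an unadjusted p under 0.05, with 3 values below 0 and 1 above. The value above 0 was that of Ackr1 (log2 fold change 1.83, and 1.43 to 2.05 without single libraries), not called. The list counted 1 higher with DESeq2, 1 higher with no filter, and 1 lower without naive replicate 3. The part of such tissue in the results was not tested. In whole-lung RNA, fewer cells of a type and less RNA per cell cannot be told apart.

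Of the 10 genes, 1 rose and 1 fell after injury. Cxcl13 was about 5-fold higher in injured lungs and Ccl22 was lower, at 0.394 times its naive level. The other 8 were not called: Ccr7 and Cxcl10 had groups that did not overlap but missed the threshold, as did Cxcl12, and Ccl5, Ccl17, Ccl19, Ccl21a and Cxcl9 overlapped. A gene was called at a Benjamini-Hochberg adjusted p under 0.05 in edgeR's quasi-likelihood test over all 15486 genes, which called 3.11% of them, 2.16% higher and 0.956% lower. Against that background, 2 of 10 called is a small count over genes chosen with earlier results known and carries no test. Groups did not overlap for 5 of the 10 (3 higher and 2 lower), against 22.9% of all tested genes (12.3% higher and 10.6% lower). An unadjusted p under 0.05 was reached by 5 of the 10, against 16.7% of all tested genes. The median log2 fold change, injured over naive, was -0.27 for the 10 genes and -0.00096 for all tested genes, and 6 of the 10 values were below 0 against 50.2% of all genes. The count of genes called in all was sensitive to single libraries, with 172 higher and 48 lower without injured replicate 1 and 145 higher and 50 lower without naive replicate 2. It was 217 higher without naive replicate 1 and 88 lower without injured replicate 2.

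**Figure D1:**
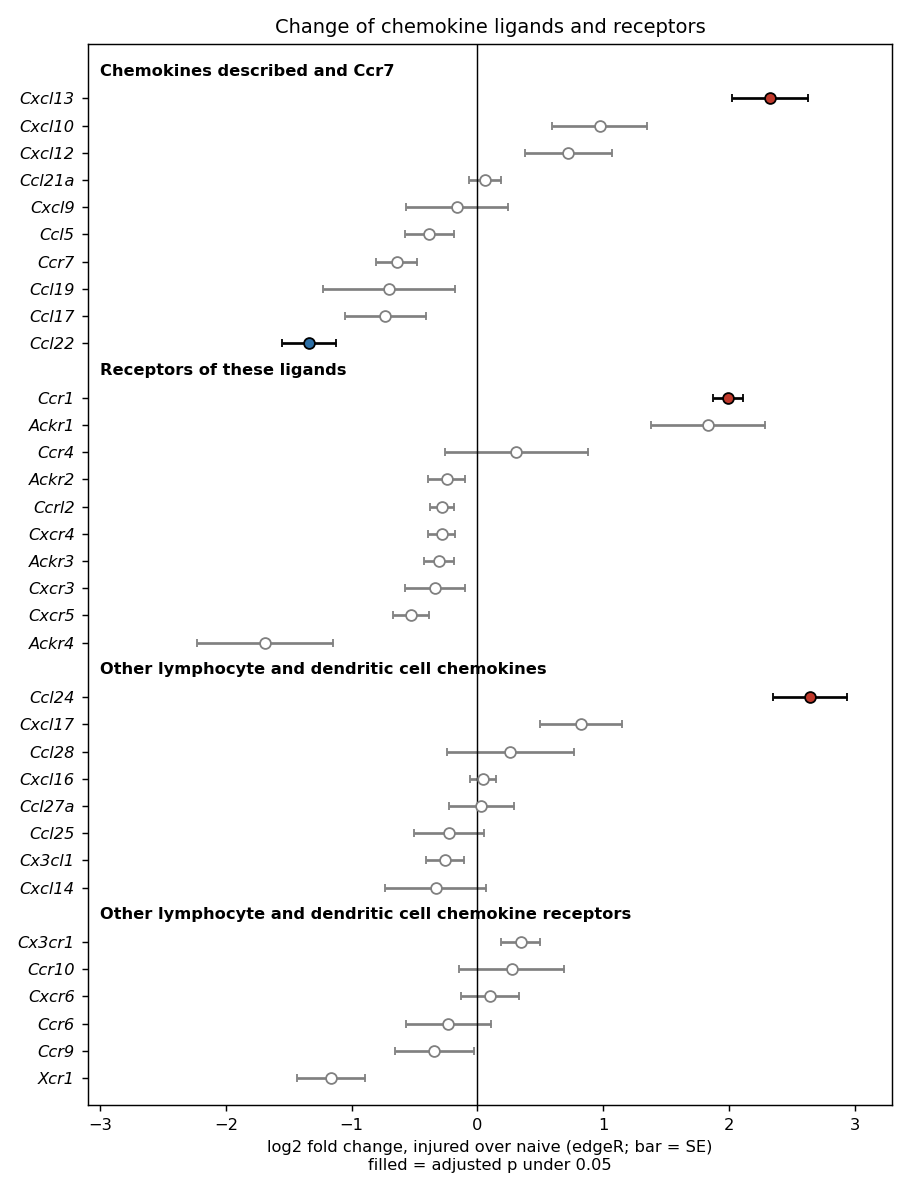
Log2 fold change (x axis), injured over naive with 3 lungs each, of the 10 genes and of related chemokines and receptors that were tested, with bars for the standard error and filled points where the adjusted p was under 0.05. Cxcl13 lies farthest right and Ccl22 farthest left of the 10, and Ccr1 and Ccl24 are the other filled points.

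Cxcl13, the B cell attractant of lymphoid follicles, was the gene that rose. It lies on chromosome 5 (ENSMUSG00000023078, mm10, 95956928 to 95961067, plus strand). The injured lungs held 8.83, 13.8 and 11.3 CPM (replicates 1 to 3), and the naive lungs held 3.13, 2.27 and 1.38 CPM. Every injured lung lay above every naive lung, and the lowest injured value was well over the highest naive one. The means were 11.3 ± 2.47 CPM in injured and 2.26 ± 0.875 CPM in naive lungs (SD, n = 3 each), on 178, 311 and 267 injured and 93, 43 and 47 naive counts. The log2 fold change was 2.33 ± 0.30 (edgeR adjusted p = 0.00518, 95% interval 1.65 to 3.01), the 90th highest of all tested genes. The call held in each fit without 1 library, with log2 fold changes of 2.04 to 2.66. In the authors' deposited table the log2 fold change of Cxcl13 is 1.59, with an adjusted p of 2.14e-12. The DESeq2 fit made here gave 2.33 at a similar adjusted p (2.21e-12). The deposited fold changes of the genes described here all lie closer to 0 than those of that fit. How they were estimated is not given, so their size is not compared with the values here.

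The promoter window of Cxcl13 is printed because it is the gene that rose. The sequence is from RefSeq (GRCm38.p6, chr5:95956689-95956988, plus strand) and runs from 250 bases before to 50 bases after the annotated start. Capitals mark, in order, an NF-kB motif match and a TATA box.
Cxcl13: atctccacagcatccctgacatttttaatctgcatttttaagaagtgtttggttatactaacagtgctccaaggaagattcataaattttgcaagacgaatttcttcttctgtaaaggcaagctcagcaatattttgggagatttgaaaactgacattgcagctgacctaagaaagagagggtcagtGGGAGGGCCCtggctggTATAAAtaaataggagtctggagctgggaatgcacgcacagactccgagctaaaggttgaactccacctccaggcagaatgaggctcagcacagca
The NF-kB match, GGGAGGGCCC, began 63 bases before the start, and the TATAAA began 46 bases before it. These distances are from the RefSeq start, 11 bases downstream of the one in the deposited table. Motifs were searched on both strands. NF-kB was read as GGGA, any 4 bases and CC, present in 20.7% of 32851 promoter windows of this length, and TATAAA was present in 13.6%. A match describes these letters and is not evidence of binding.

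The receptor of Cxcl13, Cxcr5, had 7.18 ± 0.498 CPM in injured and 10.4 ± 0.586 CPM in naive lungs (SD, n = 3 each). It was not called (log2 fold change -0.53 ± 0.14, adjusted p = 0.0905), though its groups did not overlap. By edgeR 0 of 10 tested B cell markers were called, with a median log2 fold change of -0.50. At an unadjusted p under 0.05 there were 6, and DESeq2 called 1. Without injured replicate 3, 1 fell, and without naive replicate 3, 2 fell. All entries of the list, tested or not, summed to 112 to 125 CPM in injured and 128 to 169 CPM in naive lungs. Relative to the mean of the tested B cell markers in the same lung, Cxcl13 stood at 0.46 ± 0.30 in injured and -2.38 ± 0.31 in naive lungs on the log2 scale (SD, n = 3 each), with no overlap. Cxcl13 was already called higher and the list's median was below 0, so this gap is no further support for the rise. The B cell sum was thus not higher in the lungs where Cxcl13 was higher.

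Many myeloid markers were called higher in the same lungs. Of 10 tested monocyte and interstitial macrophage markers, 8 rose. The list's median log2 fold change was 0.88, and its sum was 520 to 626 CPM in injured and 300 to 347 CPM in naive lungs. That count was 1 without naive replicate 1, 3 without injured replicate 2, naive replicate 2 or naive replicate 3, 5 without injured replicate 1 and 6 without injured replicate 3. Arg1, the arginase of activated macrophages, averaged 85.3 ± 30.2 CPM in injured and 2.37 ± 0.405 CPM in naive lungs (log2 fold change 5.19 ± 0.31, adjusted p = 0.000596). Neutrophil markers rose for 6 of 10, with sums of 719 to 1271 CPM in injured and 60.9 to 90.4 CPM in naive lungs. The count came to 3 when naive replicate 1 or naive replicate 3 was left out, and to 4 when injured replicate 1 was. Alveolar macrophage markers rose for 1 of 9 (Chil3, log2 fold change 0.74 ± 0.13, adjusted p = 0.0161, lost without injured replicate 1 or 2 or naive replicate 1, with adjusted p up to 0.0698), and DESeq2 called 3. Relative to the monocyte and interstitial macrophage markers in the same lung, Cxcl13 stood at -2.01 ± 0.31 in injured and -3.04 ± 0.56 in naive lungs, and the groups did not overlap. The part of these cells in the Cxcl13 difference was not tested.

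The tested genes whose levels over the 6 libraries lay closest to those of Cxcl13 were Clca1, Cd177 and Ccl24. Closeness is the mean absolute difference of log2 CPM after centring each gene on its own mean, among 13414 genes at 1 CPM or more, and it was 0.25, 0.26 and 0.27. Clca1, a secreted goblet cell protein, averaged 12.04 ± 2.30 CPM in injured and 2.50 ± 0.968 CPM in naive lungs. The neutrophil surface protein Cd177 averaged 27.2 ± 4.92 CPM in injured and 3.98 ± 0.839 CPM in naive lungs. These genes were picked for their likeness to Cxcl13, so their own differences are no further support for it.

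**Figure D2:**
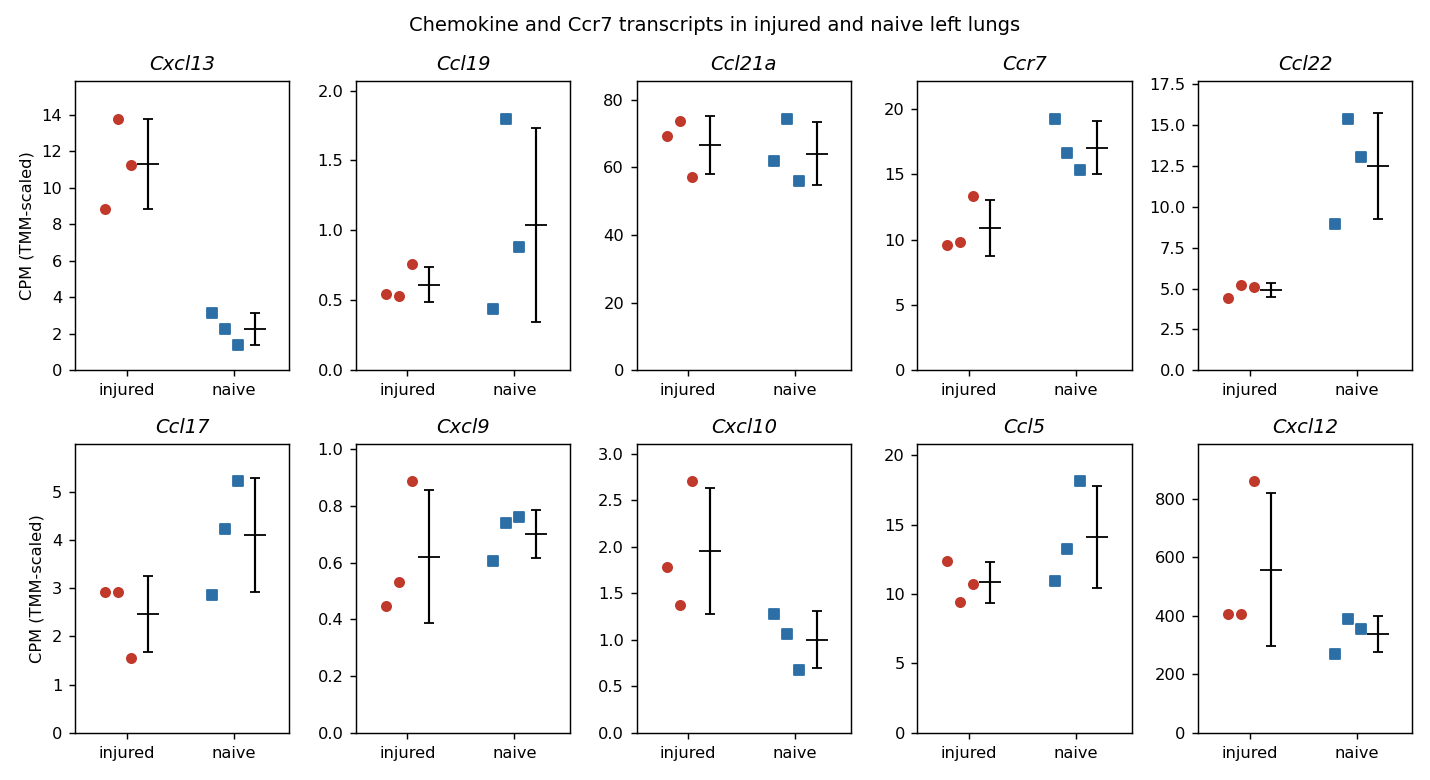
CPM of each gene in the 3 injured and 3 naive lungs (y axis from 0, with its own scale per gene; points are single lungs, lines are group means and bars their SD). Cxcl13 and Ccl22 show groups that stand apart in opposite directions, and Cxcl12 shows 1 injured lung at 858 CPM above the rest.

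Ccl22 and Ccl17 are neighbours on chromosome 8 and ligands of the same receptor, Ccr4. Dendritic cells and macrophages make both, in settings that include type 2 responses. The genes lie 58.8 kb apart, with Cx3cl1 between them. Ccl22 (ENSMUSG00000031779, mm10, 94745590 to 94751699, plus strand) had 4.42, 5.23 and 5.10 CPM in injured lungs, against 8.97, 15.4 and 13.1 CPM in naive lungs. All 3 injured lungs lay below all 3 naive lungs and close to one another. The means were 4.92 ± 0.438 CPM in injured and 12.5 ± 3.25 CPM in naive lungs (SD, n = 3 each), on 89, 118 and 121 injured and 267, 291 and 447 naive counts. Ccl22 fell by 1.34 ± 0.21 on the log2 scale (edgeR adjusted p = 0.0105, 95% interval -1.81 to -0.86), the 87th lowest of all tested genes. The call was lost without injured replicate 1 (-1.27, adjusted p = 0.0572) or naive replicate 2 (-1.17, adjusted p = 0.0523), with the direction kept. The log2 fold change of Ccl22 in the authors' deposited table is -1.04, with an adjusted p of 1.42e-06.

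Ccl17 (ENSMUSG00000031780, mm10, 94810453 to 94812035, plus strand) had 2.93, 2.92 and 1.56 CPM in injured lungs, against 2.86, 4.23 and 5.21 CPM in naive lungs. The groups overlapped through naive replicate 1, which lay below injured replicates 1 and 2. Its means were 2.47 ± 0.788 CPM in injured and 4.10 ± 1.18 CPM in naive lungs (SD, n = 3 each), and it was not called (log2 fold change -0.73 ± 0.32, adjusted p = 0.290, 95% interval -1.46 to -0.01). The log2 CPM difference of Ccl22 from Ccl17 within a lung was 1.02 ± 0.57 in injured and 1.59 ± 0.27 in naive lungs, with overlap. CPM is not corrected for gene length (2216 bases for Ccl22 and 513 for Ccl17), so this difference does not rank the levels of the 2 genes. Cx3cl1 between them was not called (log2 fold change -0.26 ± 0.15, adjusted p = 0.437).

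Both promoter windows are printed because Ccl22 is the gene that fell and Ccl17 its nearest relative. The sequences are from RefSeq (GRCm38.p6), Ccl22 at chr8:94745434-94745733 and Ccl17 at chr8:94810203-94810502, both on the plus strand. Capitals mark an NF-kB motif match in Ccl22 and a GAS motif match, TTCNNNGAA, in Ccl17.
Ccl22: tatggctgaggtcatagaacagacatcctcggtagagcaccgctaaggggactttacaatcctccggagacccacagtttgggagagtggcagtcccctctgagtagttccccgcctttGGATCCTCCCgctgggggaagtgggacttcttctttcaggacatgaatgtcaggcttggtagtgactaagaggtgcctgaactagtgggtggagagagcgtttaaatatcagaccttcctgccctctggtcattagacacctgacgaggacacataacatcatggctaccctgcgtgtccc
Ccl17: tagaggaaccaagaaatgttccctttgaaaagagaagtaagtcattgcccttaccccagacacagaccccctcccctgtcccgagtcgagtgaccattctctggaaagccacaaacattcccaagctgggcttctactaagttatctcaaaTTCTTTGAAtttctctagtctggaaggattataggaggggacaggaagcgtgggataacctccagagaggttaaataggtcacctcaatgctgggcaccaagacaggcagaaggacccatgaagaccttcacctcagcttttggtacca
The Ccl22 match, GGATCCTCCC, is on the minus strand and began 131 bases before the start. The RefSeq start of Ccl22, used for this window, lies 94 bases downstream of the start given by the deposited table, while for Ccl17 both starts are the same. The Ccl17 match, TTCTTTGAA, began 99 bases before the start, and the GAS letters were present in 8.3% of windows. The Ccl17 window held no match to the NF-kB letters and the Ccl22 window none to the GAS letters.

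Ccr4, the shared receptor of Ccl17 and Ccl22, was scarce, with 41 counts over the injured and 41 over the naive lungs (log2 fold change 0.31 ± 0.57, adjusted p = 0.852). Among 12 tested type 2 and GM-CSF signalling genes, 1 rose and 0 fell, the median being 0.07. The gene that rose was Csf2rb, the common beta chain of the GM-CSF, IL-3 and IL-5 receptors (80.0 ± 10.9 CPM in injured and 46.2 ± 2.50 CPM in naive lungs, log2 fold change 0.79 ± 0.11, adjusted p = 0.00629). Without naive replicate 3 the list counted 2 higher, and without injured replicate 3 it counted 1 higher and 1 lower. DESeq2 counted 2 higher and 1 lower, and the fits with no filter and with the replicate block 2 higher. Irf4, a transcription factor of type 2 dendritic cells, was not called (-0.61 ± 0.17, adjusted p = 0.0966).

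Conventional dendritic cell markers had medians below 0, but few were called. For cDC1, 1 of 10 fell (4 at an unadjusted p under 0.05, 3 lower by DESeq2 and with no filter, and 2 with the replicate block), with a median of -0.33 and sums of 442 to 518 CPM in injured and 622 to 643 CPM in naive lungs. The one that fell was Cadm1, which lung epithelium also expresses (log2 fold change -0.54 ± 0.11, adjusted p = 0.0317), and its call was lost without any library other than injured replicate 3 (adjusted p up to 0.0988). For cDC2, edgeR called 0 of 10 (8 at an unadjusted p under 0.05, 3 lower by DESeq2 and 1 lower without naive replicate 3), with a median of -0.40 and sums of 391 to 446 CPM in injured and 446 to 483 CPM in naive lungs. The most abundant cDC2 markers were Sirpa (0.30 ± 0.10, adjusted p = 0.153) and Dpp4 (-0.38 ± 0.09, adjusted p = 0.0555). Plasmacytoid markers were 0 of 7 called by edgeR (1 at an unadjusted p under 0.05 and 1 by DESeq2), with a median of -0.39. Mature dendritic cell markers went in both directions, with 2 of 18 lower, a median of 0.10 and sums of 534 to 590 CPM in injured and 498 to 569 CPM in naive lungs. Of the 18 values, 10 were above 0 and 8 below, and 4 had an unadjusted p under 0.05. Groups did not overlap for 3 that were higher and 3 that were lower, and DESeq2 called 1 higher and 2 lower.

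The 2 mature dendritic cell markers that fell were Cd83 and Il12b. Cd83, a surface protein of activated dendritic cells, averaged 8.57 ± 0.427 CPM in injured and 15.2 ± 0.812 CPM in naive lungs (log2 fold change -0.82 ± 0.13, adjusted p = 0.00899), and was not called without naive replicate 2 (adjusted p = 0.0556). Il12b, the p40 chain of IL-12 and IL-23, had 8 counts over the injured and 72 over the naive lungs and was named after its values were seen. Its log2 fold change was -2.78 ± 0.50 (adjusted p = 0.0193), lost without injured replicate 1 or 3 or naive replicate 1 or 2 (adjusted p up to 0.0919). Within each lung, Ccl22 relative to the mean of the mature dendritic cell markers was -1.08 ± 0.11 in injured and 0.13 ± 0.39 in naive lungs on the log2 scale. Relative to cDC1 markers it was -1.77 ± 0.08 in injured and -0.79 ± 0.42 in naive lungs, and relative to cDC2 markers -1.89 ± 0.14 in injured and -0.92 ± 0.32 in naive lungs. None of these 3 differences overlapped between groups. Ccl22 was already called lower, so these gaps are no further support for its fall. The part of dendritic cells in the Ccl22 difference was not tested.

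The genes whose levels lay closest to those of Ccl22 over the 6 libraries were Xcr1, Naalad2 and Efcc1, at mean absolute differences of 0.14, 0.15 and 0.15. Xcr1, the receptor that defines cDC1, averaged 1.94 ± 0.410 CPM in injured and 4.39 ± 0.987 CPM in naive lungs and missed the threshold (log2 fold change -1.17 ± 0.27, adjusted p = 0.0514). Naalad2 fell by 1.06 ± 0.14 (adjusted p = 0.00584) and Efcc1 by 1.11 ± 0.15 (adjusted p = 0.0055) on the log2 scale.

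**Figure D3:**
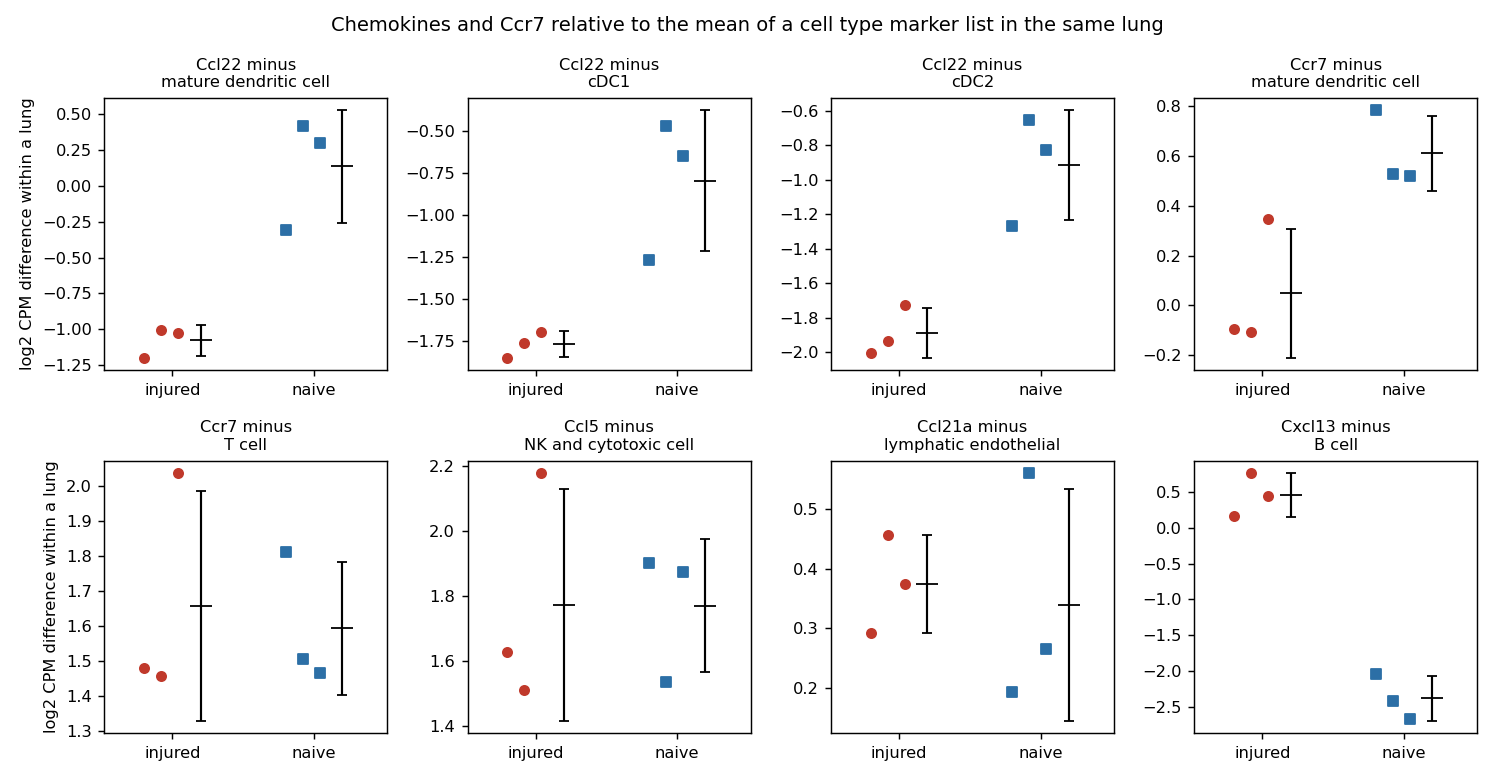
Log2 CPM of a gene minus the mean log2 CPM of a marker list in the same lung (y axis, log2 units; 1 point per lung, 3 injured and 3 naive, with the mean and SD; each panel has its own scale). Ccl22 relative to dendritic cell markers was lower in every injured lung than in every naive lung, while Ccr7 relative to T cell markers, Ccl5 relative to NK markers and Ccl21a relative to lymphatic markers overlapped.

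Ccr7 is the receptor that mature dendritic cells and naive and central memory T cells use to enter lymphatics and lymph nodes. The gene is on chromosome 11 (ENSMUSG00000037944, mm10, 99144196 to 99155077, minus strand). It had 9.58, 9.79 and 13.4 CPM in injured lungs, against 19.3, 16.6 and 15.3 CPM in naive lungs. All injured values were below all naive values, with injured replicate 3 nearest to the naive lungs. The means were 10.9 ± 2.13 CPM in injured and 17.1 ± 2.02 CPM in naive lungs (SD, n = 3 each). The log2 fold change was -0.64 ± 0.16, which missed the threshold (edgeR adjusted p = 0.0728, 95% interval -1.01 to -0.28). It passed with DESeq2 (-0.65, adjusted p = 0.0147), with no filter on low counts (adjusted p = 0.0259) and without injured replicate 3 (-0.82, adjusted p = 0.0244), and the adjusted p in the authors' deposited table is 0.0146 for a log2 fold change of -0.55.

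T cell transcripts had lower values in the same lungs. Of 16 tested T cell markers 2 fell and 0 rose, with a median of -0.69 and all 16 below 0. At an unadjusted p under 0.05 there were 13, and 8 fell with DESeq2, 6 with no filter and 1 with the replicate block. Their sum was 57.1 to 66.1 CPM in injured lungs and at least 97.7 CPM in every naive lung. The called markers were Cd4 (log2 fold change -0.94 ± 0.21, adjusted p = 0.0432) and Cd247, the zeta chain of the T cell receptor complex (-0.85 ± 0.19, adjusted p = 0.0403). Cd247 lost its call whichever library was left out (adjusted p up to 0.172), and Cd4 kept it only without injured replicate 2 (adjusted p otherwise up to 0.159). With the replicate block neither was called (adjusted p of 0.0506 for Cd4 and 0.0542 for Cd247). Naive and recirculating T cell markers fell for 3 of 8 (5 lower and 1 higher with DESeq2), with sums of 654 to 709 CPM in injured and 766 to 1103 CPM in naive lungs. They were the transcription factors Lef1 (-1.05 ± 0.15, adjusted p = 0.00672), Bach2 (-0.76 ± 0.11, adjusted p = 0.00843) and Tcf7 (-0.65 ± 0.11, adjusted p = 0.0155), called without each library in turn.

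Set against those markers within a lung, Ccr7 did not separate the groups. Relative to the T cell marker mean it was 1.66 ± 0.33 in injured and 1.59 ± 0.19 in naive lungs, and relative to the naive and recirculating T cell mean -1.66 ± 0.37 in injured and -1.50 ± 0.11 in naive lungs, both with overlap. Relative to mature dendritic cell markers, Ccr7 was 0.05 ± 0.26 in injured and 0.61 ± 0.15 in naive lungs, with no overlap. The groups of Ccr7 itself already did not overlap, so this gap is no further support for its difference. The part of either cell type in the Ccr7 difference was not tested.

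Neither ligand of Ccr7 was called. Ccl21a, made in lung mainly by lymphatic endothelium (ENSMUSG00000094686, mm10, chromosome 4, 42772860 to 42773993, minus strand), had 69.2, 73.7 and 57.2 CPM in injured lungs, against 61.7, 74.4 and 56.1 CPM in naive lungs. The groups lay over each other, with the highest and the lowest value both in naive lungs. Its means were 66.7 ± 8.57 CPM in injured and 64.1 ± 9.37 CPM in naive lungs (SD, n = 3 each), with a log2 fold change of 0.06 ± 0.13 (adjusted p = 0.877, 95% interval -0.23 to 0.35). Lymphatic endothelial markers were 0 of 10 called by edgeR (4 at an unadjusted p under 0.05, and 2 higher and 1 lower by DESeq2), with a median of 0.03 and sums of 760 to 1005 CPM in injured and 995 to 1055 CPM in naive lungs. One fell without injured replicate 1, 1 rose without naive replicate 1, and 1 rose and 1 fell without injured replicate 3. The most abundant of them were Lyve1 (-0.76 ± 0.20, adjusted p = 0.0973) and Pdpn (0.45 ± 0.10, adjusted p = 0.0511), of which Pdpn also marks type 1 alveolar cells. Relative to the lymphatic marker mean, Ccl21a was 0.37 ± 0.08 in injured and 0.34 ± 0.19 in naive lungs.

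Ccl19 (ENSMUSG00000071005, mm10, chromosome 4, 42754525 to 42756577, minus strand) had few counts assigned to it. It had 11, 12 and 18 counts in injured and 13, 34 and 30 counts in naive lungs, or 0.546, 0.532 and 0.759 CPM in injured and 0.437, 1.80 and 0.878 CPM in naive lungs. Naive replicate 2 was the highest and naive replicate 1 the lowest of all 6, so the groups overlapped. The log2 fold change was -0.70 ± 0.53 (adjusted p = 0.567, 95% interval -1.88 to 0.48), and it was -0.11 without naive replicate 2 and -1.09 without naive replicate 1. Both genes are uncertain at the level of single copies. Of 100-base stretches, 50.3% in Ccl21a and 39.3% in Ccl19 also occur in other annotated genes and pseudogenes. Among those that share stretches with Ccl19, Gm12407 had 88 and Ccl19-ps1 had 56 counts over all 6 libraries. Ccl19 itself had 41 counts over the injured and 77 over the naive lungs. Ccl21b, which shares stretches with Ccl21a, had 2 counts over all 6 libraries. How reads were divided between such copies was not tested. Ccl21a and Ccl19 lie 16.3 kb apart inside 4930578G10Rik, annotated on the opposite strand, which had 67 counts over all 6 libraries. The decoy receptor of Ccr7 ligands, Ackr4, had 3.64 ± 2.19 CPM in injured and 11.8 ± 5.43 CPM in naive lungs and was not called (log2 fold change -1.69 ± 0.54, adjusted p = 0.191).

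Cxcl9 and Cxcl10, the interferon-induced ligands of Cxcr3, are neighbours 18.6 kb apart on the minus strand of chromosome 5. Cxcl10 (ENSMUSG00000034855, mm10, 92346638 to 92348889) had 1.79, 1.37 and 2.70 CPM in injured lungs, against 1.28, 1.06 and 0.673 CPM in naive lungs. The groups did not overlap, though injured replicate 2 and naive replicate 1 were close. The means were 1.95 ± 0.679 CPM in injured and 1.00 ± 0.306 CPM in naive lungs (SD, n = 3 each). Cxcl10 was not called (log2 fold change 0.97 ± 0.38, adjusted p = 0.236, 95% interval 0.12 to 1.83), on 36, 31 and 64 injured and 38, 20 and 23 naive counts. It overlaps the span of Art3 on the opposite strand, which had 3841 counts over the 6 libraries. The strand setting of the counting is not given, and overlap of exons was not examined. Whether reads of Art3 entered the Cxcl10 counts was therefore not tested.

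Cxcl9 (ENSMUSG00000029417, mm10, 92321331 to 92328079) had 0.447, 0.532 and 0.886 CPM in injured lungs, against 0.605, 0.740 and 0.761 CPM in naive lungs. The injured lungs held the highest value and both of the lowest, so the groups overlapped. Its log2 fold change was -0.16 ± 0.41 (adjusted p = 0.892, 95% interval -1.08 to 0.75), on 9, 12 and 21 injured and 18, 14 and 26 naive counts. The log2 CPM difference of Cxcl10 from Cxcl9 within a lung was 1.53 ± 0.29 in injured and 0.43 ± 0.57 in naive lungs, with no overlap. The groups of Cxcl10 itself already did not overlap, so this gap is no further support for its difference.

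The promoter windows of this pair are printed because neighbours that respond to the same cytokines differed in the letters they hold. The sequences are from RefSeq (GRCm38.p6), Cxcl10 at chr5:92348840-92349139 and Cxcl9 at chr5:92328030-92328329, both read on the minus strand. Capitals mark, in order, an interferon-stimulated response element (ISRE, read as GAAA, any 2 bases and GAAA) and a pair of NF-kB matches in Cxcl10, and a TATAAA and an NF-kB match in Cxcl9.
Cxcl10: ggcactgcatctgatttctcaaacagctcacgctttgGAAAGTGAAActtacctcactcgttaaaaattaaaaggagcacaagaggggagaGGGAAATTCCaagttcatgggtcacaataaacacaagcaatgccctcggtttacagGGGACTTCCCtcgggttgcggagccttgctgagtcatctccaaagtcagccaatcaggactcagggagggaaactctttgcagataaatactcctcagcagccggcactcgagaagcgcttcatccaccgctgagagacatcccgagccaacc
Cxcl9: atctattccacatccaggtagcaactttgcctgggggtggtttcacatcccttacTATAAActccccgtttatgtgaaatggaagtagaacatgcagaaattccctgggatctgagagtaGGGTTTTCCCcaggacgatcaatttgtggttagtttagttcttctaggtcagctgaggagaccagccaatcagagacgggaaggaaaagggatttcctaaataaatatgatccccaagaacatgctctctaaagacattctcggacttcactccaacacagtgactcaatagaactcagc
The Cxcl10 ISRE, GAAAGTGAAA, began 213 bases before the start and its NF-kB matches, GGGAAATTCC and GGGACTTCCC, began 159 and 103 bases before it. In Cxcl9 the NF-kB match, GGGTTTTCCC, fits the letters read on the opposite strand and began 130 bases and the TATAAA 195 bases before the start. The ISRE letters were present in 3.44% of windows, and among these genes the Ccl19 window held them too. The Ccl19 match began 208 bases before the RefSeq start, which lies 212 bases downstream of the start in the deposited table. By the deposited start that match thus lies inside the gene. The windows of Cxcl12 and Ccl21a held none of the 4 motifs.

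No interferon gene was called higher. Among 22 tested interferon and interferon response genes, 0 rose and 2 fell, with a median of -0.05. The whole list, tested or not, summed to 1291 to 1414 CPM in injured and 1348 to 1506 CPM in naive lungs. Gbp3, an interferon-induced guanylate-binding protein, fell to 19.8 ± 0.884 CPM in injured lungs, against 35.4 ± 4.98 CPM in naive lungs (log2 fold change -0.84 ± 0.12, adjusted p = 0.0069). The other was again Il12b, so 1 fell without injured replicate 1 or 3 or naive replicate 1 or 2, and 3 fell without naive replicate 3, with DESeq2 or with the replicate block. Irf1, an interferon-induced transcription factor, was not called (-0.10 ± 0.10, adjusted p = 0.688). Ifng had 9 counts over the injured and 14 over the naive lungs and was removed by the filter. Cxcr3 itself was not called (2.22 ± 0.158 CPM in injured and 2.82 ± 0.316 CPM in naive lungs, log2 fold change -0.34 ± 0.24, adjusted p = 0.536).

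Ccl5, made by effector T cells and NK cells among others (ENSMUSG00000035042, mm10, chromosome 11, 83525778 to 83530518, minus strand), had 12.4, 9.39 and 10.8 CPM in injured lungs, against 10.9, 13.2 and 18.1 CPM in naive lungs. The groups overlapped, with injured replicate 1 above naive replicate 1. Its means were 10.8 ± 1.48 CPM in injured and 14.1 ± 3.67 CPM in naive lungs (SD, n = 3 each), and it was not called (log2 fold change -0.38 ± 0.20, adjusted p = 0.375, 95% interval -0.83 to 0.06). NK and cytotoxic cell markers were 0 of 11 called by edgeR (1 at an unadjusted p under 0.05 and 0 by DESeq2), with a median of -0.31 and sums of 38.0 to 56.7 CPM in injured and 43.3 to 72.4 CPM in naive lungs. Relative to their mean in the same lung, Ccl5 was 1.77 ± 0.36 in injured and 1.77 ± 0.20 in naive lungs.

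One receptor of Ccl5 rose. Ccr1, found on monocytes and neutrophils, averaged 34.6 ± 2.25 CPM in injured and 8.69 ± 0.961 CPM in naive lungs (log2 fold change 1.99 ± 0.12, adjusted p = 8.15e-05), a call kept in every alternative run. It was the 1 called gene among 11 tested receptors of these ligands, whose median was -0.28. Of these 11, 8 had an unadjusted p under 0.05, and the list counted 3 higher and 1 lower with DESeq2, 2 higher and 1 lower with the replicate block, and 2 higher with no filter. Ccr3 was removed by the filter, with 38 counts over the injured and 20 over the naive lungs. Without injured replicate 1 the receptor list counted 2 higher.

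Cxcl12 retains leukocytes and progenitors that carry Cxcr4 and is made by fibroblasts, pericytes and endothelium. The gene (ENSMUSG00000061353, mm10, chromosome 6, 117168535 to 117181367, plus strand) had 407, 405 and 858 CPM in injured lungs, against 269, 389 and 354 CPM in naive lungs. Injured replicate 3 stood far above the rest, while injured replicate 2 barely cleared naive replicate 2. The means were 557 ± 261 CPM in injured and 337 ± 61.8 CPM in naive lungs (SD, n = 3 each). Its log2 fold change of 0.72 ± 0.34 was not called (adjusted p = 0.373, 95% interval -0.12 to 1.57) and was 0.27 without injured replicate 3. Cxcr4 had 58.4 ± 7.02 CPM in injured and 71.1 ± 5.32 CPM in naive lungs (-0.28 ± 0.11, adjusted p = 0.220), and the scavenger receptor Ackr3 had 38.1 ± 6.06 CPM in injured and 47.0 ± 2.07 CPM in naive lungs (-0.31 ± 0.12, adjusted p = 0.236).

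No stromal marker was called higher by edgeR. Capillary and arterial endothelial markers were 0 of 11 called (2 at an unadjusted p under 0.05 and 1 by DESeq2), with a median of -0.07 and sums of 3817 to 4630 CPM in injured and 4634 to 5166 CPM in naive lungs. Fibroblast and pericyte markers fell for 2 of 11, Npnt (-0.83 ± 0.16, adjusted p = 0.0253) and Col14a1 (-0.60 ± 0.13, adjusted p = 0.0399), and the list's sums were 2771 to 3435 CPM in injured and 2902 to 4587 CPM in naive lungs. Neither of these was called without injured replicate 1, 2 or 3 or naive replicate 2 (adjusted p up to 0.159), and Col14a1 also not without naive replicate 3. Mesothelial markers were 0 of 6 called (1 at an unadjusted p under 0.05, 1 by DESeq2 and 1 higher without injured replicate 3). Relative to the fibroblast and pericyte mean, Cxcl12 was 1.66 ± 0.54 in injured and 0.86 ± 0.16 in naive lungs with no overlap, and relative to the endothelial mean 1.34 ± 0.75 in injured and 0.68 ± 0.25 in naive lungs with overlap. The groups of Cxcl12 itself already did not overlap, so the gap from the fibroblast and pericyte mean is no further support for its difference.

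Levels between these genes were compared in FPKM, the deposited values per length of gene. In injured lungs Cxcl12 was highest at 99.3 ± 46.5 FPKM, followed by Ccl21a at 77.0 ± 10.01 and Ccl5 at 16.3 ± 2.22 (SD, n = 3). In naive lungs Ccl21a was highest at 73.3 ± 11.4 FPKM, followed by Cxcl12 at 59.5 ± 10.7 and Ccl5 at 20.9 ± 5.11. Cxcl12 and Ccl21a overlapped within each group, so their order was not settled, while Ccl5 lay apart from its neighbours in both groups. Cxcl13 stood at 9.68 ± 2.13 FPKM in injured and 1.92 ± 0.769 FPKM in naive lungs, rank 4 in injured and rank 7 in naive lungs. Ccl22 stood at 2.23 ± 0.199 FPKM in injured and 5.59 ± 1.44 FPKM in naive lungs, rank 7 in injured and rank 6 in naive lungs. Its relative Ccl17 was at 4.84 ± 1.55 FPKM in injured and 7.92 ± 2.18 FPKM in naive lungs, above Ccl22 without overlap in injured lungs and with overlap in naive lungs. Ccr7 was at 5.54 ± 1.07 FPKM in injured and 8.58 ± 1.13 FPKM in naive lungs and overlapped Ccl17 in both. At the bottom, Cxcl9 had 0.215 ± 0.0802 FPKM in injured and 0.240 ± 0.0264 FPKM in naive lungs, below Cxcl10 (1.79 ± 0.620 in injured and 0.914 ± 0.290 in naive lungs) and Ccl19 (0.795 ± 0.164 in injured and 1.33 ± 0.900 in naive lungs) without overlap in either group.

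**Figure D4:**
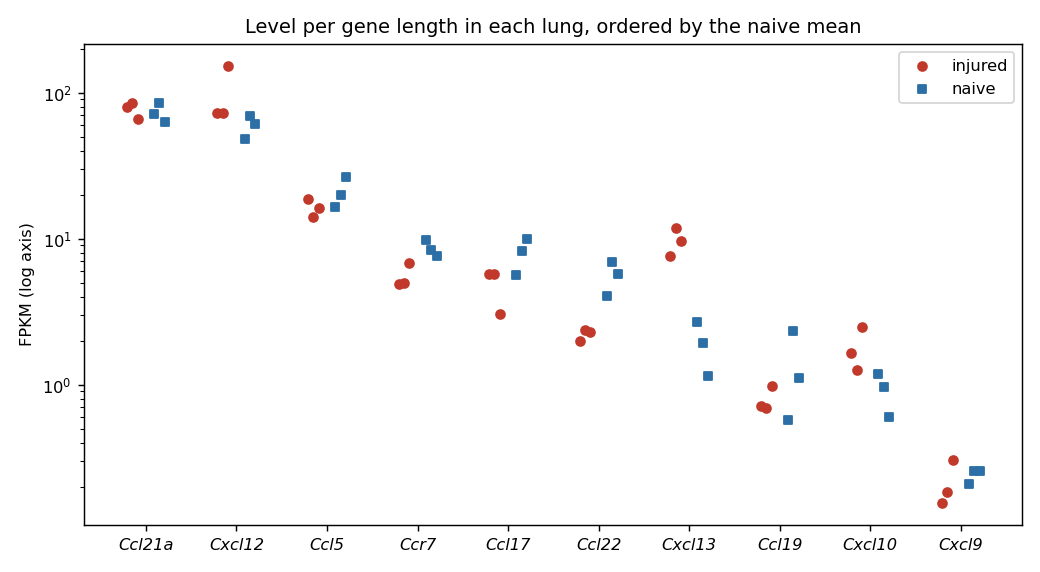
FPKM of each gene in the 3 injured and 3 naive lungs (y axis on a log scale; 1 point per lung, genes ordered by their naive mean). Cxcl12 and Ccl21a lie at the top and Cxcl9 at the bottom, and Cxcl13 stands at rank 4 in injured lungs and rank 7 in naive lungs.

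Other chemokines of lymphocytes and dendritic cells were mostly not called. Of 14 listed, 8 were tested, of which 1 rose and 0 fell. Ccl24, an eosinophil attractant made by macrophages, averaged 3.94 ± 0.898 CPM in injured and 0.623 ± 0.0458 CPM in naive lungs (log2 fold change 2.65 ± 0.29, adjusted p = 0.00201). Cxcl17 was not called by edgeR (0.82 ± 0.33, adjusted p = 0.284) but was by DESeq2 (adjusted p = 0.0310), which counted 2 higher in this list. Not called either was Cxcl16 (0.05 ± 0.10, adjusted p = 0.880). Ccl20, the ligand of Ccr6, was removed by the filter with 50 counts over the injured and 10 over the naive lungs. Of 6 tested further receptors 0 were called in the reported edgeR fit, 1 had an unadjusted p under 0.05 and 1, Xcr1, was called lower by DESeq2. Xcr1 was also called by edgeR with no filter (adjusted p = 0.0217), with the replicate block (adjusted p = 0.0491) and without injured replicate 3. The fractalkine receptor Cx3cr1 was not called (0.34 ± 0.16, adjusted p = 0.311).

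Lymphotoxin and non-canonical NF-kB genes, which drive Cxcl13, Ccl19 and Ccl21 in lymphoid stroma, were 1 of 8 called. Tnfsf14, the cytokine LIGHT that binds the lymphotoxin beta receptor, averaged 5.69 ± 1.62 CPM in injured and 1.55 ± 0.162 CPM in naive lungs (log2 fold change 1.87 ± 0.27, adjusted p = 0.00714) and was called without each library in turn. Lymphotoxin beta, Ltb, was not called (-0.18 ± 0.13, adjusted p = 0.538), and neither was Relb (0.17 ± 0.11, adjusted p = 0.504).

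**Figure D5:**
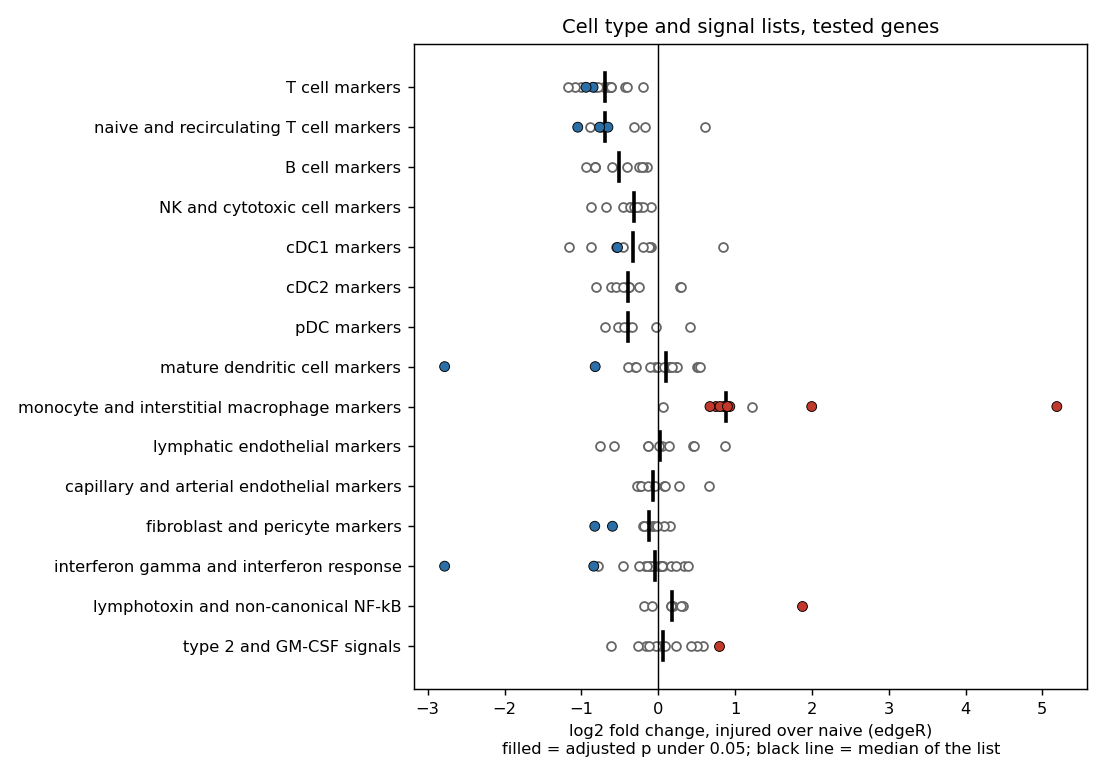
Log2 fold change, injured over naive, of every tested gene in 15 of the lists (x axis, log2 scale; 1 point per gene, filled where the adjusted p was under 0.05, black line at the median). T cell markers all lie below 0, monocyte and interstitial macrophage markers lie above 0, and lymphatic and endothelial markers spread around 0.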

How the data were processed

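RNA of 6 whole left lungs, 3 injured and 3 naive, was sequenced as paired reads of 150 bases on an Illumina NovaSeq instrument after NEBNext Ultra II library preparation, per the labels' protocols. The authors deposited 1 table. Per the file headers its columns give each gene's read count, normalized count and FPKM in every library, and the authors' own log2 fold changes and p-values. The deposited normalized counts, a signal, are the counts over a single factor for each library (relative tolerance 1e-06). Build mm10 is named in the submitters' processing notes together with the tools STAR, STAR-Fusion, HTSeq, edgeR and DESeq2. Their settings and the counting strand are not given there. FPKM was used as deposited.

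Deposited counts, all whole numbers, were filtered by edgeR's filterByExpr (15486 of 23194 genes) and scaled by TMM. Group means were tested in R 4.3.3 with edgeR 4.0.16 (limma 3.58.1), by the quasi-likelihood F test in its robust form, group being the only term. Tests were two-sided, with Benjamini-Hochberg adjustment over all genes tested, and intervals are 95% and unadjusted. The p-values measure the spread between these lungs, taken as 1 mouse each. The fit was checked on simulated counts. The genes and the 24 gene lists were chosen with earlier results of these data known. Receptors and chemokines of the lists could all be named. From each other list up to 3 called genes with the largest change at 1 CPM or more, or the 2 most abundant, could be named. Not all of these are named in the text. Il12b, Rag1, Glycam1, Irf4, Irf1, Ifng, Ltb and Relb were named after their values were seen. A few list genes are not reported here. Alternatives were limma-voom, DESeq2 1.42.0, its size factors within edgeR, unscaled library sizes, a filter of 1 CPM in 3 libraries, none at all, the replicate number as a block, and each library left out.

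Promoter windows come from RefSeq (GRCm38.p6), in which Ccl5 and Ccr7 were not matched. Overlaps and shared stretches of 100 bases were read from GENCODE M21.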

Additional observations from a re-analysis of the deposited data

How the results depend on the processing

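Cxcl13 was called higher under every alternative, so 1 of the 10 genes rose in each. Ccl22 was called under all alternatives other than leaving out injured replicate 1 or naive replicate 2, with log2 fold changes of -1.54 to -1.17 without single libraries. The number of the 10 that fell was 1 in the reported fit, 2 with no filter, 2 with DESeq2 (Ccr7 being added at -0.64 and -0.65), and 0 to 2 without single libraries, where Ccr7 ranged from -0.82 to -0.55. All tested genes counted 334 higher and 148 lower in the reported fit, 578 higher and 398 lower with DESeq2, 269 lower with no filter, and 145 to 333 higher and 48 to 146 lower without single libraries. The sign changed when single libraries were left out for genes near 0: Cxcl9 (-0.51 to 0.0196), Ccl21a (-0.035 to 0.18), Tcf4 (-0.089 to 0.021) and Chst4 (-1.13 to 0.17). The fits without a library rest on fewer samples; for the others the cause was not tested. A filter of 1 CPM in 3 libraries removed Cxcl9 and Ccl19, which then had no value. Same-numbered lungs had correlations of 0.0767, -0.0853 and 0.154 between their deviations, and different-numbered lungs had -0.297 to 0.282. With 3 lungs per group, these values cannot show whether the numbers pair the samples. With the replicate block 413 genes were higher and 208 lower, and Cxcl13 (2.35, adjusted p = 0.0073) and Ccl22 (-1.32, adjusted p = 0.0059) were called. Low counts limit Cxcl9, Cxcl10 and Ccl19.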
